A study of Rattus with 6 samples.

Results

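The 10 genes described here encode matrix metalloproteinases and their inhibitors in rat bone marrow mesenchymal stem cells (BMSC), the stromal cells of marrow that can form bone, fat and cartilage. They were chosen by symbol, with Mmp2, Mmp3, Mmp9, Mmp10, Mmp11, Mmp13 and Mmp14 as the proteinases and Timp1, Timp2 and Timp3 as the inhibitors. All 10 were found among the 30211 genes of the deposited table. RNA was sequenced from 3 control libraries and 3 libraries of cells given 100 uM dexamethasone, a synthetic glucocorticoid, and both groups were of wild-type genotype and collected at day 4. The labels do not give the strain, age or sex of the animals, nor whether the controls received vehicle. Nor do they say whether replicates came from different cultures, so p-values cover only the spread among these libraries, which may be technical. The titles and descriptions separate the groups, whereas the treatment tag reads DEX for all 6 samples.

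Matrix metalloproteinases are zinc-dependent enzymes that cut collagens and other matrix proteins outside the cell. Most are made as inactive precursors, and a prodomain has to be removed, by plasmin, by furin-like convertases or by another metalloproteinase, before they work. Tissue inhibitors of metalloproteinases (TIMPs) bind the active site and block it. In bone and marrow stroma these enzymes take part in matrix turnover, and several of their genes respond to interleukin-1 and AP-1 transcription factors, which glucocorticoids are known to oppose.

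Library totals ranged from 34835072 to 41676315 counts. Levels are given as CPM, counts scaled by TMM to a common depth, or as RPKM, the same value per kilobase of exon, wherever levels of different genes are compared. Fkbp5, an established target of the glucocorticoid receptor, stood at 69.0 to 71.0 CPM in the controls and 1290 to 1430 CPM with dexamethasone, so the group labels were matched by this gene. Log2 CPM correlated at 0.994 or more within groups and at 0.936 to 0.937 between them.

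All 7 metalloproteinase genes fell with dexamethasone, while the 2 inhibitor genes that could be tested moved in opposite directions: Timp1 fell and Timp2 rose. Timp3 was near the detection floor and was not tested. A change was called when edgeR's quasi-likelihood test gave a p below 0.05 after Benjamini-Hochberg adjustment across every tested gene. Of the 9 tested members, 8 fell and 1 rose, where 31.7% of the 14111 tested genes fell and 32.3% rose. The median log2 fold change was -1.63 over the 9 tested members and -1.91 over the 7 proteinases, against -0.00019 over all tested genes. The members were chosen with earlier results of these data known, so these contrasts with all tested genes are descriptions only. The libraries of the groups did not overlap for any of the 9, a state that held for 66.9% of all tested genes. The same 8 falls and 1 rise were called with the biological coefficient of variation set to 0.2, where 12.0% of tested genes fell and 14.1% rose. The common value estimated from these libraries was 3.66%, well below that setting. The 8 falls and 1 rise were also called against a fold of 1.5, where 9.06% fell and 11.0% rose. These are bulk samples, in which fewer cells of a type and less RNA per cell cannot be told apart.

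**Figure D1:**
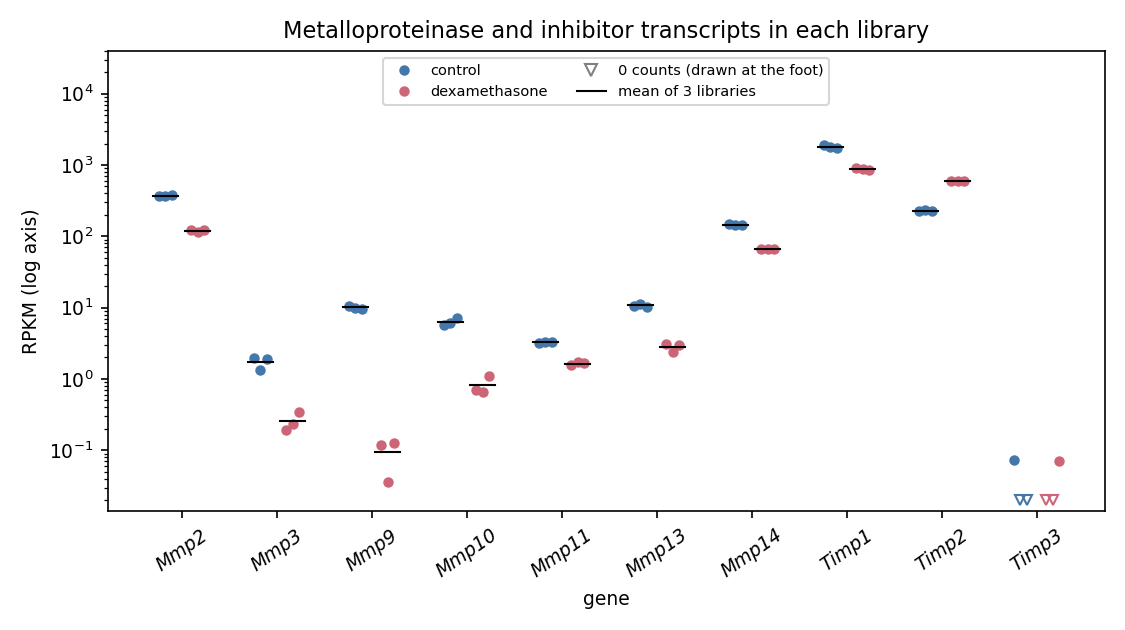
Level of each of the 10 genes in each library, as RPKM on a log axis; points are libraries, short lines are means of 3, and open triangles are libraries with 0 counts. The control and dexamethasone points are separated for 9 genes, with Timp2 the one that is higher with dexamethasone, and Timp3 has counts in 1 library of each group.

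Among the gelatinases, which digest denatured collagen and the type IV collagen of basement membranes, Mmp2 was the abundant one and Mmp9 the one that was nearly lost. Mmp2 (chromosome 19, 15542765 to 15570611) had 1137, 1132 and 1149 CPM in the controls, against 373, 355 and 374 CPM under dexamethasone. Its 3 dexamethasone libraries lay close together and far below the controls, 3.10-fold lower on average. The log2 fold change of Mmp2 was -1.63 ± 0.024 (SE, edgeR adjusted p = 1.1e-40). Mmp9 (chromosome 3, 161413298 to 161421520) had 33.3, 31.4 and 30.4 CPM in the controls, against 0.379, 0.113 and 0.394 CPM under dexamethasone. That is 3742 counts over the 3 controls and 36 over the 3 dexamethasone libraries. The dexamethasone libraries were thus near the floor of 6 counts (3 read pairs), which is 0.142 to 0.170 CPM by library, and replicate 2 was below it. The log2 fold change of Mmp9 was -6.69 ± 0.47 (SE, edgeR adjusted p = 1.6e-35), and 31 of the 14111 tested genes had a lower one. On read pairs, the ratio of control to dexamethasone for Mmp9 was 104, with an exact 95% binomial interval of 65.6 to 176 that covers counting error only.

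Mmp13 is the main interstitial collagenase of rodents, able to cut native fibrillar collagen. Mmp13 (chromosome 8, 5522739 to 5533018) had 27.6, 29.5 and 26.8 CPM in the controls, against 8.06, 6.21 and 7.88 CPM under dexamethasone. All 3 dexamethasone libraries were below all 3 controls, 3.79-fold on average, with a log2 fold change of -1.91 ± 0.13 (SE, edgeR adjusted p = 1.8e-24). Of the other collagenase genes, Mmp1 and Mmp1b were without a count in any of the 6 libraries (a floor of 0.170 CPM at the lowest depth), and Mmp8 had 2 counts in all. Mmp13 was therefore the only collagenase gene of these that passed the filter on low counts.

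The stromelysins Mmp3 and Mmp10 cleave proteoglycans and other matrix proteins and can activate other proenzymes. Both started from lower levels than Mmp13 and had larger fold changes, a difference between genes that was not tested. Mmp3 (chromosome 8, 5676665 to 5698579) had 3.37, 2.31 and 3.30 CPM in the controls, against 0.332, 0.397 and 0.591 CPM under dexamethasone, from 353 and 52 counts in all. Mmp10 (chromosome 8, 5734348 to 5742243) had 9.67, 10.3 and 12.4 CPM in the controls, against 1.21, 1.13 and 1.85 CPM under dexamethasone. For both genes the highest dexamethasone library was replicate 3, and it was still well below the lowest control. The log2 fold change was -2.76 ± 0.28 (SE) for Mmp3 and -2.94 ± 0.24 for Mmp10, with edgeR adjusted p of 5.6e-13 and 2.9e-20. These genes are close paralogs, and how reads that fit both were counted is not given in the sources used, so the split of counts between them is uncertain.

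Mmp3, Mmp10 and Mmp13 lie in a cluster of metalloproteinase genes on chromosome 8. By the coordinates in the table, 10 genes of the family were found within 1 Mb of Mmp3, spanning 378.3 kb. Only the 3 members named were tested, and all 3 fell. The others, Mmp12, Mmp1b, Mmp1, Mmp8, Mmp27, Mmp20 and Mmp7, had 0 to 14 counts over all 6 libraries, too few to read a change from. In the same window, 8 genes outside the family were tested, of which 4 rose, 1 fell and 3 did not pass, where 32.3% of all tested genes rose and 31.7% fell. The neighbour that fell, named after its value was seen, was Birc3, an inhibitor of apoptosis, at a log2 fold change of -0.65 ± 0.050 (SE, edgeR adjusted p = 6.3e-10). Its close relative Birc2, named for comparison in the same way, rose by 0.22 on the log2 scale (edgeR adjusted p = 1.9e-04).

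**Figure D2:**
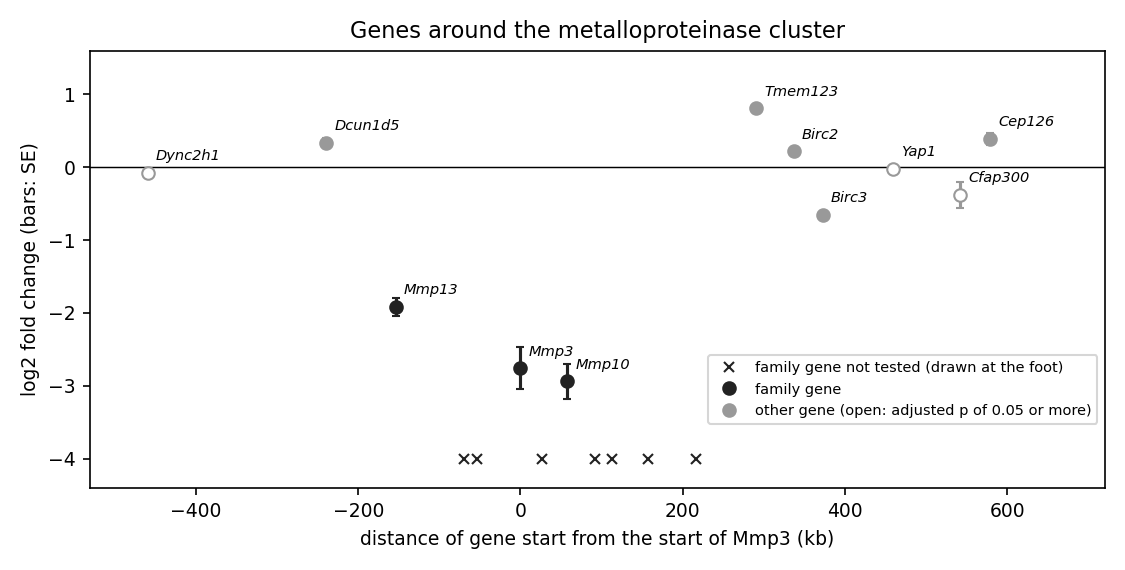
Log2 fold change (dexamethasone over control, bars are SE) of tested genes within 1 Mb of Mmp3, against the distance of each gene's start from that of Mmp3 in kb; crosses at the foot are family genes too low to test. Mmp13, Mmp3 and Mmp10 lie between -1.91 and -2.94, while the 8 tested neighbours outside the family lie between -0.65 and 0.81.

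Mmp14 encodes a membrane-anchored metalloproteinase that cuts collagen at the cell surface and activates the Mmp2 proenzyme, using Timp2 as a bridge. Mmp14 (chromosome 15, 33074441 to 33083655) had 358, 353 and 347 CPM in the controls, against 161, 161 and 159 CPM under dexamethasone. The groups did not overlap, and the fall was 2.20-fold, a log2 fold change of -1.14 ± 0.014 (SE, edgeR adjusted p = 3.3e-33). Mmp11, also called stromelysin-3, is unusual in being activated inside the cell by furin. Mmp11 (scaffold AABR07024104.1, 23101 to 31944) had 7.44, 7.55 and 7.62 CPM in the controls, against 3.58, 3.91 and 3.84 CPM under dexamethasone. It was 2.0-fold lower with no overlap between the groups, a log2 fold change of -1.0 ± 0.040 (SE, edgeR adjusted p = 3.9e-10). The table places Mmp11 on an unplaced scaffold, whereas the RefSeq gene table for GRCr8 has it on chromosome 20.

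The inhibitors were dominated by Timp1 and Timp2. Timp1, a secreted inhibitor often induced together with the enzymes by cytokines, lies on chromosome X (1364786 to 1369384). It had 1414, 1303 and 1288 CPM in the controls, against 673, 648 and 631 CPM under dexamethasone. All 3 dexamethasone libraries were lower, 2.05-fold on average, with a log2 fold change of -1.04 ± 0.050 (SE, edgeR adjusted p = 1.5e-21). Timp2 (chromosome 10, 107338465 to 107386072), the inhibitor that also takes part in Mmp2 activation, went the other way. It had 373, 386 and 377 CPM in the controls, against 980, 1005 and 996 CPM under dexamethasone. Every dexamethasone library was higher than every control, 2.63-fold on average, with a log2 fold change of 1.39 ± 0.019 (SE, edgeR adjusted p = 2.9e-38).

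Timp3, an inhibitor that stays bound to the matrix, was almost undetected. Timp3 (chromosome 7, 23544215 to 23594133) had 5 counts in control replicate 1, 5 counts in dexamethasone replicate 3, and 0 in the other 4 libraries. It did not pass the filter on low counts, and the ratio of dexamethasone to control was 1.0 with an exact 95% binomial interval of 0.134 to 7.47 on read pairs. No difference was detectable at this depth. The exons of Timp1, Timp2 and Timp3 overlapped no exon of another gene in the table. The spans of Timp1 and Timp3 overlap those of Syn1 and Syn3 on the opposite strand, which had 1.70 and 0.432 CPM in the controls. The span of Timp2 overlaps that of Cep295nl on the same strand, at 8.85 CPM in the controls and 13.5 CPM with dexamethasone.

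On the length-scaled level, the controls were ordered Timp1 (1804 RPKM), Mmp2 (371 RPKM), Timp2 (228 RPKM) and Mmp14 (145 RPKM), each clear of the next in every library. Mmp13 (10.8 RPKM) and Mmp9 (10.1 RPKM) came next, and their libraries overlapped. Mmp10 (6.33 RPKM), Mmp11 (3.28 RPKM) and Mmp3 (1.75 RPKM) followed without overlap. With dexamethasone, Timp2 (598 RPKM) stood above Mmp2 (120 RPKM) and second only to Timp1 (879 RPKM). Mmp9 dropped to 0.0938 RPKM, the lowest of the tested members, and its range overlapped that of Timp3. Mmp11 (1.65 RPKM) was then above Mmp10 (0.820 RPKM) in every library.

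Summed over the 22 metalloproteinase genes in the table, the level was 595 to 599 RPKM in the controls and 227 to 233 RPKM with dexamethasone. Summed over the 4 inhibitor genes it was 1967 to 2136 RPKM in the controls and 1454 to 1501 RPKM with dexamethasone. The inhibitor sum was thus 3.28 to 3.57 times the proteinase sum in the controls and 6.23 to 6.53 times with dexamethasone. Mmp2 made up 61.9% to 62.5% of the proteinase sum in the controls and 51.0% to 52.2% with dexamethasone, while Mmp14 made up 23.8% to 24.6% and 28.0% to 29.1%. Mmp9 went from 1.61% to 1.77% down to 0.0159% to 0.0536%. In the inhibitor sum, Timp2 took 10.5% to 11.7% in the controls and 39.3% to 41.2% with dexamethasone. These sums describe transcripts and not enzyme activity, and no test was made on them.

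**Figure D3:**
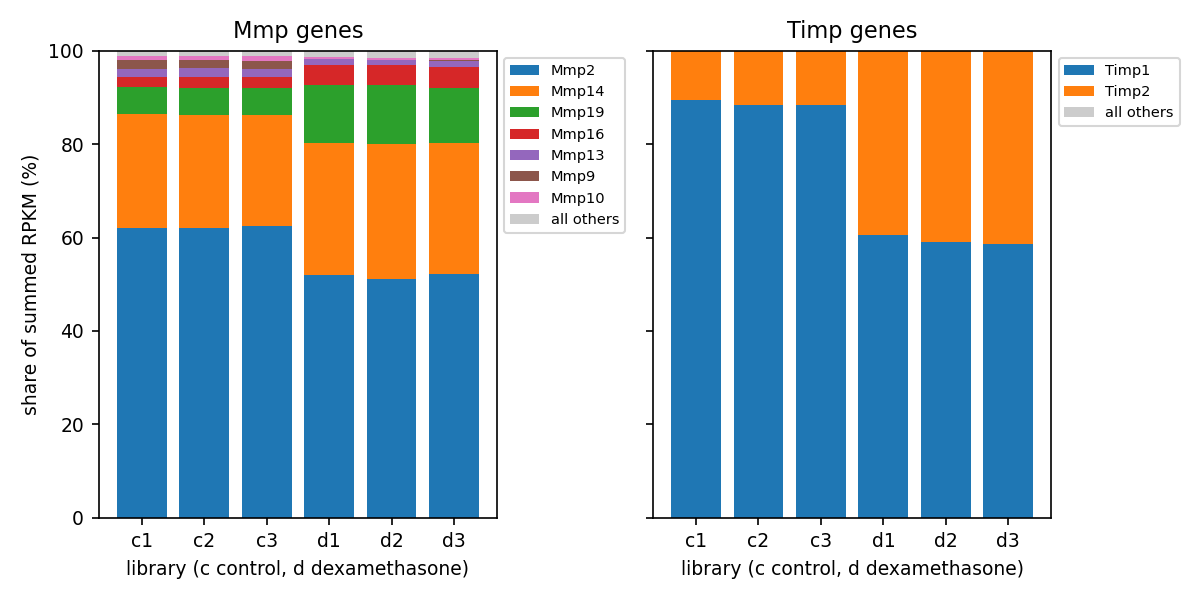
Share of each gene in the summed RPKM of all 22 metalloproteinase genes (left) and all 4 inhibitor genes (right), as stacked bars for 3 control (c1 to c3) and 3 dexamethasone (d1 to d3) libraries. Mmp2 and Mmp14 fill most of every left bar, and on the right Timp2 widens from 10.5% to 11.7% up to 39.3% to 41.2%.

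The balance of enzyme to inhibitor was also taken within each library for 4 pairs, as ratios of RPKM. Mmp14 to Timp2 was 0.656, 0.623 and 0.628 in the controls and 0.112, 0.109 and 0.109 with dexamethasone, 5.78-fold lower. Mmp2 to Timp2 was 1.65, 1.58 and 1.65 in the controls and 0.206, 0.191 and 0.203 with dexamethasone, 8.15-fold lower. These are the pairs in which enzyme and inhibitor transcripts moved in opposite directions. The groups did not overlap for either gene, so their lower ratios follow from the changes given above and add no separate evidence. Mmp13 to Timp1 was 0.00555, 0.00645 and 0.00593 in the controls and 0.00341, 0.00273 and 0.00356 with dexamethasone, 1.86-fold lower. Mmp3 to Timp1 was 0.00104, 0.000771 and 0.00111 in the controls and 0.000221, 0.000275 and 0.000414 with dexamethasone, 3.28-fold lower. In these latter pairs enzyme and inhibitor transcripts both fell, the enzyme by more on average. Their lower mean ratios thus also follow from the changes given above. All 4 ratios were lower in 3 of 3 dexamethasone libraries, and each gave p = 0.1 in a two-sided exact permutation test (adjusted over the 4 pairs, 0.1), the smallest p that 3 against 3 allows.

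**Figure D4:**
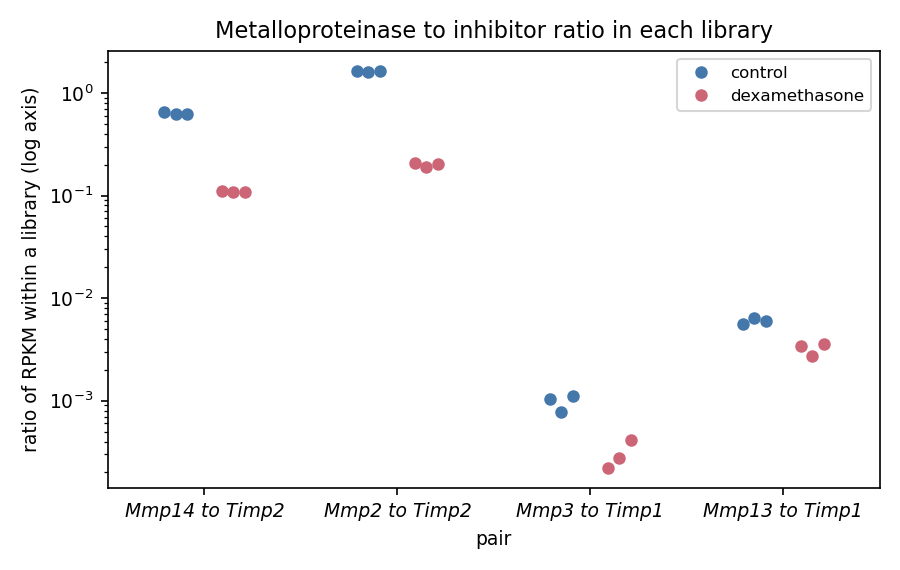
Ratio of metalloproteinase to inhibitor RPKM within each library, on a log axis, for 4 pairs; points are libraries. In each pair the 3 dexamethasone points lie below the 3 control points, most widely for Mmp2 to Timp2 (8.15-fold).

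Most of the rest of the family was too low to test. Of 16 further family genes in the table, 4 were tested, of which 1 rose, 2 fell and 1 did not pass. Among all tested genes, 32.3% rose and 31.7% fell. Mmp16, another membrane-type enzyme, had 48.6 ± 1.88 CPM in the controls and fell to 35.9 ± 1.54 CPM (SD, n = 3), by 0.44 on the log2 scale (edgeR adjusted p = 9.4e-11). Mmp19, an enzyme that cleaves basement membrane proteins, had 68.1 ± 0.625 CPM and fell to 56.9 ± 1.29 CPM, by 0.26 on the log2 scale (edgeR adjusted p = 2.3e-07). Neither call held with the biological coefficient of variation set to 0.2 (edgeR adjusted p = 0.183 for Mmp16 and 0.511 for Mmp19) or in the test of a 1.5-fold change (edgeR adjusted p = 1 for both). Mmp24 had 4.63 ± 0.561 and 5.42 ± 0.323 CPM and did not pass (edgeR adjusted p = 0.11). Timp4, the remaining inhibitor of the family, had 10 counts over the 3 controls and 207 over the 3 dexamethasone libraries. It rose from 0.156, 0 and 0.10 CPM to 1.92, 1.33 and 1.95 CPM, with an edgeR adjusted p of 8.6e-12. The ratio of dexamethasone to control for Timp4 was 21.0 on read pairs, with an exact 95% binomial interval of 8.72 to 66.0. Its log2 fold change was 4.31 in the fit of all libraries, 5.03 without control replicate 1 and 3.74 without control replicate 2. Even so, Timp4 made up at most 0.0787% of the inhibitor sum in any library.

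**Figure D5:**
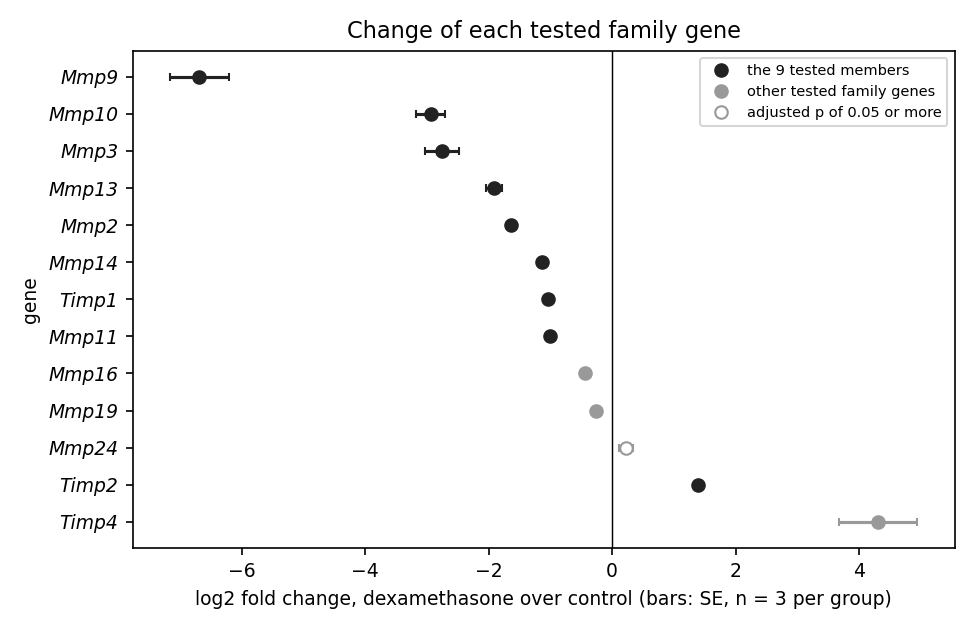
Log2 fold change (dexamethasone over control, bars are SE, n = 3 per group) of the 13 tested genes of the metalloproteinase and inhibitor family; dark points are the 9 tested members, grey points the other 4, and the open point did not pass. Mmp9 lies farthest left at -6.69, and Timp2 (1.39) and Timp4 (4.31) are the called genes to the right of 0.

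Genes that activate or restrain the enzymes were counted from pathway lists, to be read against the 32.3% of all tested genes that rose, the 31.7% that fell and the median of -0.00019. Of 14 tested genes of plasminogen activation and proprotein convertases (16 listed), 6 rose, 7 fell and 1 did not pass. Their median log2 fold change was -0.10. Plat, the tissue plasminogen activator, fell from 148 ± 5.35 to 16.5 ± 1.37 CPM (SD, n = 3, edgeR adjusted p = 3.5e-39). Furin, a convertase that removes the prodomain of Mmp11 and Mmp14, fell from 118 ± 3.54 to 45.0 ± 1.59 CPM (edgeR adjusted p = 1.1e-31). S100a10, a surface partner of annexin A2 that binds plasminogen and its activator, rose from 56.7 ± 1.97 to 204 ± 2.81 CPM (edgeR adjusted p = 2.8e-38).

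Of 14 tested pericellular regulators (16 listed), 4 rose, 7 fell and 3 did not pass. Their median log2 fold change was -0.40. Over all tested genes, 32.3% rose and 31.7% fell, with a median of -0.00019. Reck, a membrane-anchored inhibitor of several metalloproteinases, fell from 90.7 ± 0.384 to 36.6 ± 3.03 CPM (SD, n = 3, edgeR adjusted p = 4.7e-27). Lrp1, an endocytic receptor that clears metalloproteinases and their inhibitors, fell from 4361 ± 23.5 to 2808 ± 47.5 CPM (edgeR adjusted p = 1.7e-27). Thbs1, thrombospondin-1, a secreted matricellular protein, fell from 2318 ± 37.0 to 782 ± 7.05 CPM (edgeR adjusted p = 2.3e-41). A2m, named after its value was seen, encodes a secreted trap for proteinases of many kinds. Its controls held 6 counts and its dexamethasone libraries 389, which is a ratio of 65.0 on read pairs with an exact 95% binomial interval of 21.9 to 318. Tfpi2, another inhibitor gene of this list, was also named after its value was seen. It dropped from 230 counts to 6, with 2 in each dexamethasone library, below the floor. Its log2 fold change was -5.17 (edgeR adjusted p = 1.7e-14). On read pairs, control was 38.7 times dexamethasone for Tfpi2, with an exact 95% binomial interval of 12.9 to 190. Of these inhibitors outside the TIMP family, Reck and Tfpi2 thus fell, and A2m rose.

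Genes for collagen uptake and lysosomal breakdown were counted in the same way. Of 8 tested (10 listed), 3 rose, 4 fell and 1 did not pass. Their median log2 fold change was -0.28. Over all tested genes, 32.3% rose and 31.7% fell, with a median of -0.00019. Mrc2, an endocytic receptor for collagen fragments, fell from 277 ± 5.89 to 125 ± 3.35 CPM (SD, n = 3, edgeR adjusted p = 4.0e-32). Fap, a surface peptidase of fibroblasts, fell from 69.2 ± 3.61 to 42.5 ± 1.19 CPM (edgeR adjusted p = 2.1e-18). Cst3, cystatin C, an inhibitor of cysteine cathepsins, rose from 35.5 ± 2.95 to 192 ± 4.13 CPM (edgeR adjusted p = 4.4e-34).

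Among 22 tested cytokines, receptors and transcription factors known to act on metalloproteinase genes (24 listed), 3 rose, 16 fell and 3 did not pass. Their median log2 fold change was -0.87. Over all tested genes, 32.3% rose and 31.7% fell, with a median of -0.00019. Il1a, interleukin-1 alpha, fell from 64.9 ± 0.196 to 0.209 ± 0.122 CPM (SD, n = 3, edgeR adjusted p = 4.4e-43). Il6 fell from 122 ± 3.90 to 0.802 ± 0.216 CPM (edgeR adjusted p = 2.4e-47). Jun, an AP-1 subunit, fell from 135 ± 1.87 to 40.0 ± 1.93 CPM (edgeR adjusted p = 1.5e-35). The 3 rises, picked out after their values were seen, were in Il1rn, the antagonist of the interleukin-1 receptor (log2 5.59), Jund (0.57) and Cebpb (0.48).

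Mmp9 is also made by macrophages, osteoclasts and neutrophils, so markers of those cells were read beside it. Of 10 macrophage markers, 6 were tested, of which 3 fell and 3 did not pass, where 32.3% of all tested genes rose and 31.7% fell. Adgre1 and Cd163 had 0 counts in every library. The markers that fell, all low, were Cd74 (1.74 to 0.139 CPM), Cd68 (1.21 to 0.509 CPM) and Lyz2 (0.467 to 0.133 CPM). The summed level of the list was 11.7 to 12.4 CPM in the controls and 8.71 to 9.66 CPM with dexamethasone. Most of that was Cd14, at 7.27 ± 0.468 and 7.65 ± 0.187 CPM (SD, n = 3), which did not pass. Without Cd14 the sum was 4.45 to 5.57 CPM in the controls and 1.28 to 1.92 CPM with dexamethasone. That sum was therefore lower with dexamethasone, as Mmp9 was, but of its genes only Cd74, Cd68 and Lyz2 were called. Whether cells bearing these markers had a part in the fall of Mmp9 was not tested. Of 7 osteoclast markers, Acp5, Dcstamp and Ocstamp had 0 counts in every library, and the 1 tested marker, Nfatc1, fell. The osteoclast sum went from 3.62 to 3.86 CPM down to 0.517 to 0.569 CPM, nearly all of it Nfatc1, which is a transcription factor of several cell types. Of 7 neutrophil markers, Mpo, Elane and Ltf had 0 counts in every library, and the sum was 0.710 to 0.975 CPM in the controls and 0.764 to 0.900 CPM with dexamethasone. That sum hides opposite values: S100a8, not tested, was at 0 counts in every control and at 41 over the dexamethasone libraries, and the other 6 summed to 0.710 to 0.975 CPM against 0.340 to 0.542 CPM.

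Markers of mesenchymal stroma moved apart. All 9 in the table were tested, of which 4 rose, 4 fell and 1 did not pass, where 32.3% of all tested genes rose and 31.7% fell. Prrx1, a mesenchymal transcription factor, went from 727 ± 19.2 down to 75.6 ± 2.51 CPM (SD, n = 3), and Pdgfrb, a growth factor receptor, from 616 ± 11.8 down to 137 ± 7.94 CPM. Col1a1, a chain of type I collagen, went from 1138 ± 16.4 down to 665 ± 8.43 CPM, while Pdgfra, the other receptor of that pair, rose from 598 ± 2.59 to 965 ± 20.2 CPM. Lepr, a marker of marrow stroma in vivo, was low in both groups but higher with dexamethasone. It stood at 0.262 CPM in the controls and 0.913 CPM with dexamethasone. The markers named here were picked after their values were seen and are not the whole list.

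Mmp9 had the largest change of the 10 genes, and its profile was compared with those of all other tested genes by the Euclidean distance of mean-centred log2 CPM over the 6 libraries. The 5 nearest genes were AABR07042454.1 (distance 0.800), the chemokine genes Cxcl6 (1.04) and Ccl2 (1.05), Csf2, a myeloid growth factor (1.08), and Il6 (1.09). All 5 were high in the 3 controls and low in the 3 dexamethasone libraries. With 2 groups this likeness rests mainly on the size of the fall, and it is given as a description.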

How the data were processed

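The deposited table held read counts per gene for all 6 libraries, with exon coordinates and summed exon length, per the file headers. The submitters' processing notes name mm10, a mouse build, but the symbols and chromosomes in the table are rat. Coordinates are therefore those of the table. The rat build, aligner, counter, strand setting and handling of multiply mapped reads were not given in the sources used here. Low values were mostly even (70.3% of those from 1 to 20), so the floor was put at 6 counts, or 3 read pairs, and intervals used read pairs (each count over 2, rounded up). Floors and intervals cover counting error only.

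Genes were filtered with filterByExpr by group (14111 kept, 16100 left out), TMM-scaled, and fitted in edgeR 4.0.16, R 4.3.3 (robust dispersions, quasi-likelihood fit and test, no covariate, Benjamini-Hochberg). SE values came from the spread of log2 CPM with a prior count of 2. RPKM was TMM-scaled CPM per kilobase of the exon length in the table. Ratios within a library added 0.5 counts to each gene. Alternatives used DESeq2 1.42.0, limma 3.58.1 (voom) and the settings in the closing section. All 10 symbols were in the RefSeq gene table (GRCr8).

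The members, gene lists, pairs and alternatives were chosen with earlier results of these data known. In each pathway list the 3 called genes of lowest p were named, and every called gene where 3 or fewer were called. All other genes, including those of the cell type marker lists, Mmp24 and genes named for their low counts, were picked after their values were seen. On simulated data (13971 genes tested), 45 of 50 genes lowered to a fold of 0.5 and 48 of 50 raised to a fold of 2 were recovered. At folds of 0.25 and 4, 48 of 50 and 50 of 50 were recovered, and 7 unchanged genes were called. The simulation gave every gene the same dispersion and changed far fewer genes than were called here, so these rates may not carry over.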

Additional observations from a re-analysis of the deposited data

How the results depend on the processing

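The 9 tested members kept their direction and their call in all 15 alternatives to the fit: other scaling factors, library size alone, DESeq2, limma-voom, no filter on low counts, read pairs, the replicate block, a preset coefficient of variation, a test against a fold of 1.5, and leaving out each library. Across them the log2 fold change of Mmp9 ranged from -6.92 to -6.34, of Mmp3 from -3.03 to -2.57 and of Timp2 from 1.38 to 1.43. The member with the largest adjusted p was Mmp11, at 5.9e-04 (edgeR). Non-overlap of the groups, a rule added after seeing the data, gave the same 9 members, but it held for 66.9% of all tested genes. With the biological coefficient of variation set to 0.2, 3693 genes were called in all, 1993 higher and 1700 lower, and against a fold of 1.5, 2827 were called, 1549 higher and 1278 lower, against 9027 in the fit reported. With the replicate number as a block (replicate block), 8991 genes and the same number of members, 9, were called. Correlations of deviations between libraries with the same number ran from -0.0078 to 0.020, so no pairing by number was detectable. Whether libraries with the same number share a culture or donor cannot be told from these values. The 4 ratios kept their direction with 2 counts added and without each library. Depth limits Timp3 and the 12 untested family genes. Without the filter, Timp3 was tested and not called (log2 -0.01, edgeR adjusted p = 1.0).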
